A study of Mus musculus with 6 samples.

Results

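The replication-dependent histone genes encode the bulk histone proteins that package newly made DNA, and they were taken here as every row of the count table whose mouse symbol was H1f1 to H1f5 or began with H2ac, H2bc, H3c or H4c followed by a number. This rule gave 67 of 78275 genes, with 5 H1, 18 H2A, 19 H2B, 12 H3 and 13 H4 genes. RNA was sequenced from TCRβhigh CD4-CD8+ T cells of WT mice and of BIT mice, with 3 libraries a genotype, each from its own mouse. The BIT mice were homozygous for an allele in which the coding sequence of Psmb11, encoding the thymoproteasome subunit β5t, was placed at the start of Psmb8, encoding the immunoproteasome subunit β5i, so that β5t was made in place of β5i in all cells that use the Psmb8 promoter. Both genotypes were on the C57BL/6 background, untreated, 9 to 10 weeks old and given as male. The cells came from lymph nodes by the tissue label and the study's RNA sequencing methods, although the extraction label also names spleens. Several BIT lines were made, and the study used 1 of them, BIT #1–2, wherever it names no other, as for this experiment. The comparison asks how the RNA of CD8+ T cells differs when β5t replaces β5i.

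Nucleosomes wrap DNA around pairs of the core histones H2A, H2B, H3 and H4, and the linker histone H1 binds where DNA enters and leaves the particle. Dividing cells need these proteins mainly during S phase, when many near-identical gene copies, gathered in a few clusters, are transcribed together. Their usual transcripts have no introns and, unlike other mRNAs, end in a conserved stem-loop instead of a poly(A) tail. SLBP binds that stem-loop, the U7 snRNP directs the cut after it, and the transcript is degraded once DNA synthesis stops, so histone mRNA is usually low in resting lymphocytes. Copies of some of these genes can also give longer, polyadenylated transcripts in cells that have left the cycle.

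The stem-loop is shown first because it is the feature that defines this class of RNA and because the rule, which read only symbols, did not use it. A perfect stem of 6 base pairs around a loop of 4 bases was searched in the 150 bases after the stop codon, starting with GG, with TT as the first bases of the loop and ending with CC. It was found in 60 of 67 members and in 13 of 21703 other protein-coding genes (0.06%), among which were the histone genes H1f6, H2ax, H2bw2 and H3f4. There were 6 forms, each given below once with 5 flanking bases on either side, written from 5′ to 3′ on the gene's strand as DNA from the GRCm39 genome, with the 16 bases of the stem-loop in capitals. H4c17 and H4c18, and H2ac23 and H2ac24, are near-identical pairs on which a later comparison turns, and they are added to show that the genes of each pair match in this stretch too.
H1f2 (chr13:23923490-23923515, + strand, a form in 39 members of the classes H1, H2A, H2B and H3): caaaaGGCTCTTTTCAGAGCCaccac
H3c7 (chr13:23729097-23729122, + strand, a form in 8 members of the classes H2A, H2B and H3): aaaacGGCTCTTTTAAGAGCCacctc
H2ac20 (chr3:96127729-96127754, - strand, a form in 1 member): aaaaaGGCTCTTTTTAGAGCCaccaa
H4c4 (chr13:23765928-23765953, + strand, a form in 8 H4 members): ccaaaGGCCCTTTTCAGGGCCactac
H4c14 (chr3:96170250-96170275, - strand, a form in 2 H4 members): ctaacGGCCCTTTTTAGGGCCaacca
H4c2 (chr13:23941344-23941369, + strand, a form in 2 H4 members): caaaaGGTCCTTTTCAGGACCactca
H4c17 (chr13:21996294-21996319, + strand): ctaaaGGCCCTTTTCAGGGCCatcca
H4c18 (chr13:22015963-22015988, - strand): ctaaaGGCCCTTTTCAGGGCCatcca
H2ac23 (chr13:21995063-21995088, + strand): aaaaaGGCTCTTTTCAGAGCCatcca
H2ac24 (chr13:22017194-22017219, - strand): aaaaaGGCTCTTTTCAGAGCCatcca
Among the members, the H4 stem-loops were set apart from those of the other classes by bases within the stem, and no form was shared between H4 and another class. Outside the rule, H2ax had the same stem as H4c4, with a different base in the loop. The stem-loop began 21 to 58 bases after the stop codon, with a median of 31 bases. The 7 members without such a stem-loop in the window were H2ac22, H2bc21, H2bc22, H2bc23, H2bc24, H3c8 and H4c1. For H2bc22, H2bc23 and H2bc24 the window followed the stop codon of an annotated transcript of 2 exons. Its coding sequence was 414, 402 and 402 bases long, against 378 in H2bc18, and no other stretch of these genes was searched.

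The libraries held between 37467678 and 52922675 counts, so that 3 counts corresponded to between 0.0567 and 0.0801 CPM, which are counts scaled to the total of each library. As a check of the labels, Psmb8 had 8024 to 10790 counts in the WT libraries and 59 to 73 in the BIT libraries, whereas Psmb11 had 0 counts in every WT library and 1226 to 1926 in the BIT libraries. The CD8 T cell markers, led by Cd8b1, Cd3e and Cd8a, summed to 5510 to 6000 CPM in WT and 5710 to 6090 CPM in BIT. Against its label as male, WT replicate 3 had Xist at 66626 counts (2 to 125 in the rest) and no count for any of 4 Y-linked genes (8474 to 12329 in the rest). The class sums, the main counts of members and the named members whose value moved by more than 1.5 times are therefore also given without it.

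Histone transcripts made up 0.112%, 0.121% and 0.134% of the counts in WT replicates 1 to 3 and 0.102%, 0.108% and 0.0917% in BIT replicates 1 to 3. The summed level of all members was 1222 ± 110.3 CPM (SD, n = 3) in WT and 1003 ± 80.3 CPM (n = 3) in BIT, a ratio of 0.821. All BIT libraries lay below all WT libraries. After quantile normalization the log2 fold change of BIT against WT for this sum was -0.26 with a standard error (SE) of 0.110 and a 95% interval from -0.51 to -0.01. Without WT replicate 3 the value was -0.17 (SE 0.103, 95% interval -0.40 to 0.07), and in replicates 1 and 2 alone it was -0.10 (SE 0.0994, -0.33 to 0.13), so that both intervals included 0. In bulk RNA, fewer cells that make a transcript and less of it in each cell cannot be told apart.

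Because near-identical genes share reads, the classes were summed before single genes were read. The linker histone H1 genes had 311, 296 and 376 CPM in WT replicates 1 to 3 and 260.1, 321 and 266 CPM in BIT replicates 1 to 3. These groups overlapped, since BIT replicate 2 lay above WT replicates 1 and 2. The H2A genes had 289.9, 321 and 335 CPM in WT and 248, 252 and 228 CPM in BIT. The H2B genes had 100.01, 126 and 144 CPM in WT and 91.9, 78.9 and 89.2 CPM in BIT. In both of these classes every BIT library was below every WT library. The H3 genes had 99.6, 122 and 177 CPM in WT and 99.0, 90.5 and 99.8 CPM in BIT, and the H4 genes had 317, 347 and 304 CPM in WT and 318, 333 and 235 CPM in BIT. For H3 the groups touched between WT replicate 1 and BIT replicate 3, and for H4 they overlapped broadly.

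**Figure D1:**
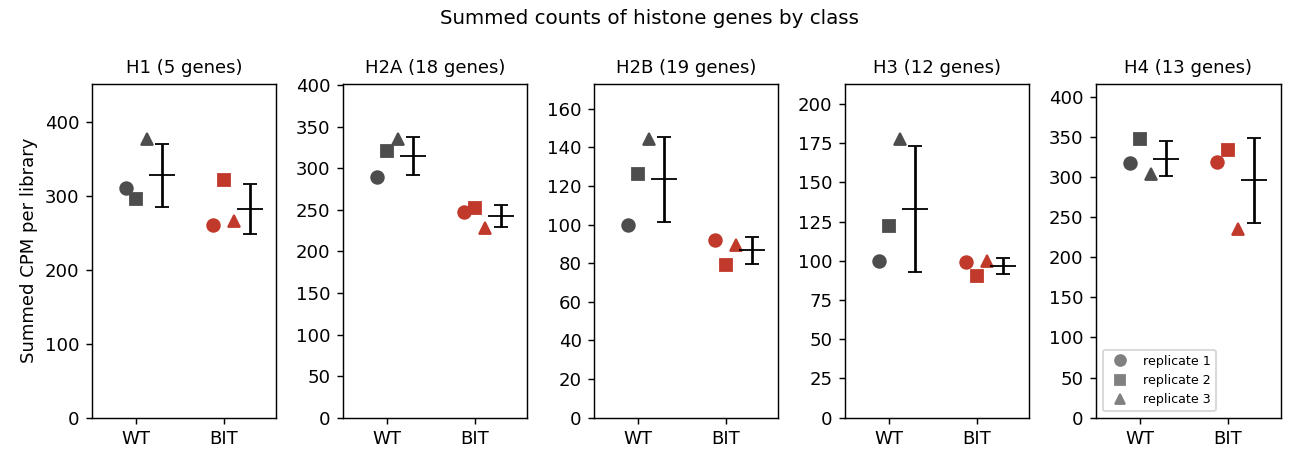
Summed CPM of each histone class on a linear axis from 0, with 1 point per library, marked by replicate number, and the mean ± SD of each genotype beside the points. In H2A and H2B the 3 BIT libraries lie below the 3 WT libraries, in H3 the high WT point is replicate 3, at 177 CPM, and in H1 and H4 the genotypes overlap.

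On the log2 scale of the fit, H2B differed by -0.55 (SE 0.141, 95% interval -0.87 to -0.24), H3 by -0.47 (SE 0.174, -0.87 to -0.08), H2A by -0.45 (SE 0.1002, -0.68 to -0.23) and H1 by -0.28 (SE 0.109, -0.53 to -0.03). For H4 the difference was -0.22 (SE 0.158) with an interval from -0.58 to 0.14 that included 0. Without WT replicate 3 the values were -0.47 for H2B (95% interval -0.79 to -0.14) and -0.43 for H2A (-0.69 to -0.17), while the intervals included 0 for H3 (-0.28, from -0.57 to 0.01), H1 (-0.21, from -0.46 to 0.05) and H4 (-0.29, from -0.67 to 0.10). The H4 value was -0.04 without BIT replicate 3 and -0.11 without WT replicate 2, and that of H3 ran from -0.68 (without WT replicate 1) to -0.28. H3 thus moved most, and in WT replicate 3 it stood at 1.599 times the mean of WT replicates 1 and 2, against 1.28 for H2B, 1.24 for H1, 1.10 for H2A and 0.916 for H4. BIT replicates 1 and 2 lay below WT replicates 1 and 2 for H2A, H2B and H3, but not for H1 or H4. All of these fitted values are after quantile normalization. TMM normalization, another way to scale the libraries, gave -0.50 for H2B, -0.43 for H3 and -0.38 for H2A. It gave -0.22 (SE 0.116) for H1 and -0.15 (SE 0.175) for H4, so that every class value was smaller in size. With DESeq2, H1 was at -0.21 (SE 0.125) and H4 at -0.12 (SE 0.174). The class values carry no p-value, since the members were chosen with earlier results of these data known.

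Of the members, 63 passed the filter on low counts and were tested with limma-voom in a fit of all genes. None of the 63 had an adjusted p below 0.05 (Benjamini-Hochberg over all 16105 genes tested), a threshold met by 0.137% of all genes, and none met the stricter rule of an adjusted p of 0.01 with more than a 2-fold difference, met by 0.0248%. An unadjusted p below 0.05 with a lower level in BIT was found for 19 of 63 members, or 30.2%, against 4.32% of all genes tested. That number was 33 without WT replicate 1 and 14 to 19 without any of the other libraries, WT replicate 3 (16) included. For those fits the share of all genes was not computed. In the opposite direction it was found for 3 members (H2ac23, H4c18 and H2ac12), or 4.76%, against 4.25%. The 3 BIT libraries were all below the 3 WT libraries for 18 members (28.6%, against 6.69% of all genes) and all above them for 1 member, H4c18 (1.59%, against 6.09%). A fitted difference below 0 was found for 54 of 63 members, or 85.7%, against 47.7% of all genes. Without WT replicate 3 it was found for 52 of 63, or 82.5%, against 49.3% of all genes then tested, and the 3 BIT libraries were all below WT replicates 1 and 2 for 20 members, or 31.7%, against 11.5%. The median log2 fold change was -0.35 over the members and 0.01 over all genes. DESeq2, a second count model, gave an adjusted p below 0.05 to 6 members (H2bc6, H1f3, H2ac18, H2ac23, H2ac24 and H4c16) and to 0.94% of the 13292 genes for which it gave one.

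By class, the fitted difference was below 0 for 5 of 5 H1, 13 of 17 H2A, 15 of 17 H2B, 11 of 11 H3 and 10 of 13 H4 genes. The class medians were -0.49 for H2B, -0.41 for H1, -0.35 for H3, -0.24 for H2A and -0.22 for H4. Members that did not enter the test were H2ac1, H2bc1 and H3c14, with 0 counts in every library, and H2bc24, with 168 counts in WT replicate 1 only. For H2ac1 and H2bc1, a count of 0 allows a level of up to 3 counts, or 0.0801 CPM in the shallowest library. For H3c14 it sets no such bound, since 100% of its 100-base windows also occurred in transcripts of other genes. H2ac1 and H2bc1 are best known as histone genes of the male germ line.

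**Figure D2:**
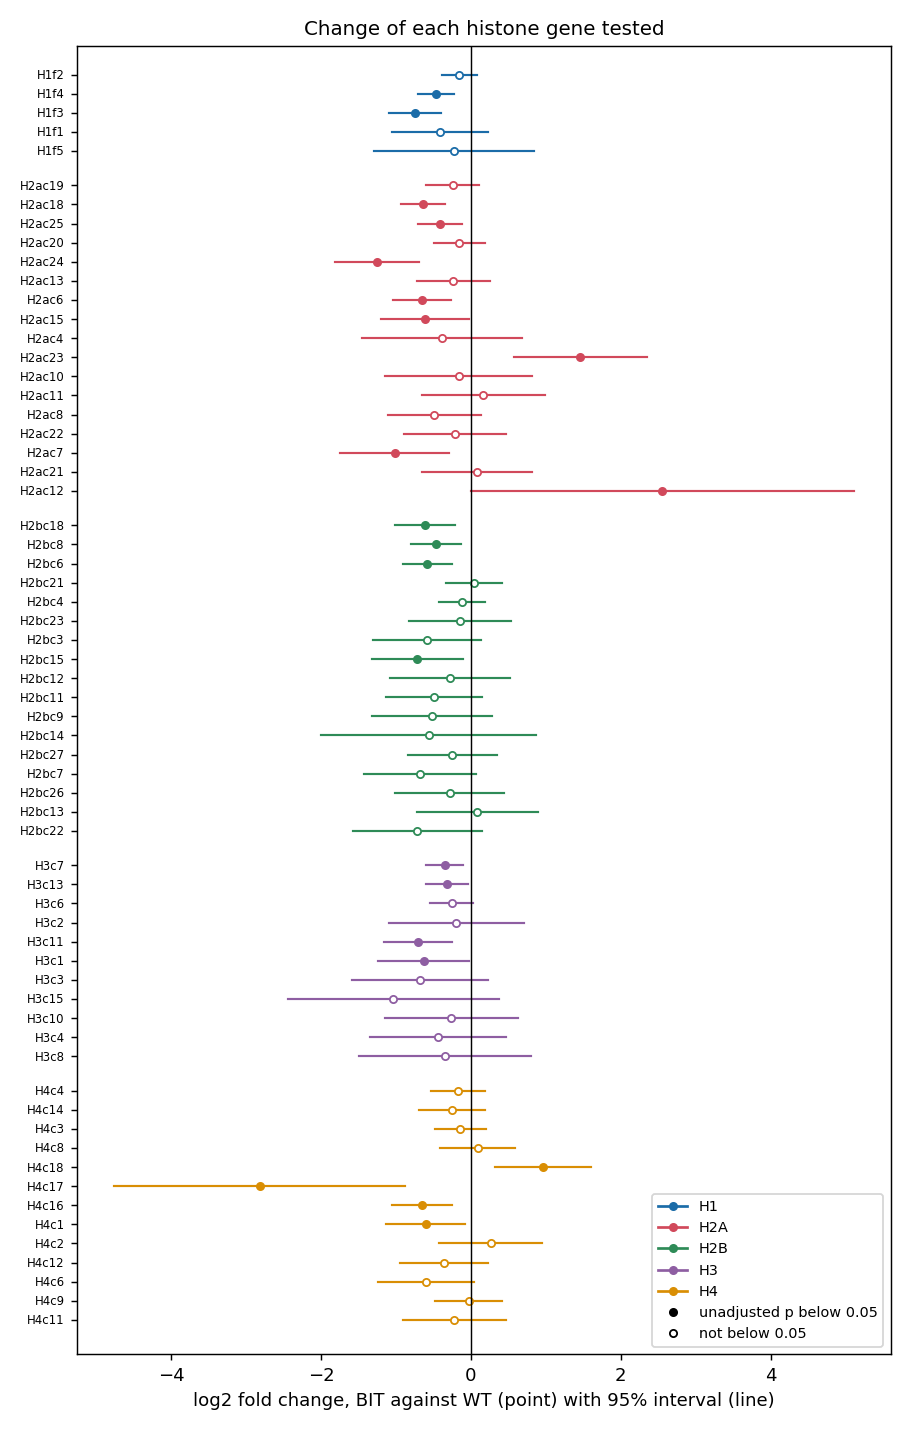
Log2 fold change of BIT against WT (point) with its 95% interval (line) for the 63 members tested, ordered within each class by mean CPM, with filled points for an unadjusted p below 0.05. Most points lie to the left of 0, and the widest departures in opposite directions are H4c17 (-2.82) and H2ac12 (2.55).

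Among the linker histones, H1f2 held 66.4% of the H1 counts in WT. It had 219, 192 and 241 CPM in WT replicates 1 to 3 and 189, 236 and 194 CPM in BIT replicates 1 to 3, groups that overlapped, with a log2 fold change of -0.15 (SE 0.104, adjusted p = 0.711 from limma-voom, as are all adjusted p values below). H1f4 had 51.9, 49.7 and 62.1 CPM in WT and 37.04, 46.7 and 39.4 CPM in BIT, with no overlap (-0.47, SE 0.107, adjusted p = 0.325). H1f3 differed most within the class. It had 30.2, 37.3 and 44.8 CPM in WT and 22.3, 24.3 and 20.4 CPM in BIT, again without overlap (-0.74, SE 0.153, adjusted p = 0.248). The overlap of the H1 sum was thus that of its most abundant gene. H1f2, H1f3 and H1f4 encode linker histone subtypes that many cell types hold together, and all lie on chromosome 13 within the largest histone cluster.

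The H2A class was led by H2ac19 and H2ac18, which are neighbours on chromosome 3 (chr3:96147065-96147592 and chr3:96152813-96153398) on opposite strands. H2ac19 had 116, 133 and 98.7 CPM in WT and 106, 109 and 90.3 CPM in BIT, with overlap (-0.24, SE 0.156, adjusted p = 0.701, and -0.38 without WT replicate 3). H2ac18 had 63.3, 54.3 and 53.1 CPM in WT and 40.3, 40.0 and 32.2 CPM in BIT, without overlap (-0.64, SE 0.127, adjusted p = 0.228). The share of H2ac18 in the pair was 28.9% to 35.3% in WT and 26.3% to 27.5% in BIT. Of the 100-base windows of the H2ac19 transcript, 100% also occurred in another annotated transcript, chiefly the unnamed gene Gm20634, so reads from H2ac19 could be counted elsewhere. The same holds for H2ac18, with 88.3% of its windows also in Gm20634. Gm20634 itself had 14.1, 18.2 and 18.4 CPM in WT and 9.69, 10.0 and 17.7 CPM in BIT (-0.49, adjusted p = 0.559). The sum of H2ac18 and H2ac19 differed by -0.37 (SE 0.144, 95% interval -0.70 to -0.05).

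Per kilobase of the annotated transcript, averaged over all 6 libraries, H2ac19 was also the most abundant member, at 206 CPM per kilobase. It was followed by H1f2 at 136, H4c8 at 89.9, H2ac18 at 80.5 and H4c18 at 77.3 CPM per kilobase. These orders depend on the annotated ends, which differ widely between members.

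H2ac25, in the small cluster on chromosome 11, had 26.3, 27.4 and 36.9 CPM in WT and 22.0, 21.2 and 24.7 CPM in BIT, without overlap (-0.41, SE 0.129, adjusted p = 0.508). Its gene model overlaps Trim17, which was nearly silent here, at no more than 0.197 CPM. H2ac6 (-0.65, adjusted p = 0.396) and the less abundant H2ac7 (-1.02, adjusted p = 0.508) did not overlap between the genotypes either, whereas H2ac15 (-0.61, adjusted p = 0.565) did, because BIT replicate 2, at 6.73 CPM, lay above WT replicate 1, at 6.49 CPM. The value of H2ac15 was -0.40 without WT replicate 3. H2ac12 was close to the limit of detection, with 0, 0.396 and 0.771 CPM in WT and 0.805, 0.566 and 0.706 CPM in BIT. Its fitted value of 2.55 (SE 1.12, adjusted p = 0.582) rests on the 0 in WT replicate 1 and was 0.67 without that library.

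In the H2B class, H2bc18 on chromosome 3 had 22.3, 30.7 and 24.3 CPM in WT and 19.2, 14.9 and 16.3 CPM in BIT (-0.62, SE 0.177, adjusted p = 0.461). H2bc8 had 17.9, 21.8 and 24.8 CPM in WT and 16.9, 13.5 and 15.98 CPM in BIT (-0.47, SE 0.148, adjusted p = 0.509). H2bc6 had 18.1, 21.0 and 23.2 CPM in WT and 14.7, 11.2 and 15.6 CPM in BIT (-0.59, SE 0.144, adjusted p = 0.367). In each of these leading H2B genes every BIT library was below every WT library, so the sum was not set by a single gene. H2bc15, at 2.65 to 5.71 CPM in WT and 1.95 to 2.31 CPM in BIT, followed the same order (-0.72, adjusted p = 0.543). All BIT libraries were below all WT libraries for 5 of 17 tested H2B genes. The genes next in mean CPM after the leading ones, H2bc21 (0.04), H2bc4 (-0.12) and H2bc23 (-0.15), overlapped between the genotypes.

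The H3 class was led by H3c7, with 31.7, 32.8 and 41.0 CPM in WT and 28.1, 25.5 and 29.4 CPM in BIT (-0.35, SE 0.111, adjusted p = 0.508). H3c13 had 21.4, 25.8 and 28.4 CPM in WT and 21.0, 18.7 and 20.8 CPM in BIT (-0.32, SE 0.125, adjusted p = 0.553). Both were without overlap, H3c13 by a margin of less than 1 CPM and with 77.1% of its windows also in Gm20634. H3c6 had 17.4, 18.1 and 24.7 CPM in WT and 15.9, 16.2 and 17.4 CPM in BIT, where the highest BIT and the lowest WT value met (-0.26, SE 0.128, adjusted p = 0.633). H3c11 (-0.71, SE 0.201, adjusted p = 0.457) lay at 6.66 to 11.9 CPM in WT and 4.64 to 5.57 CPM in BIT. H3c1 (-0.63, SE 0.269, adjusted p = 0.568) lay at 5.67 to 12.4 CPM in WT and 4.04 to 6.89 CPM in BIT, with overlap. Without WT replicate 3 the value of H3c6 was -0.14 and that of H3c1 was -0.41. WT replicate 3 was the highest library for all 11 H3 genes tested.

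The abundant H4 genes overlapped between the genotypes. H4c4 had 65.7, 73.1 and 62.4 CPM in WT and 73.2, 63.1 and 50.4 CPM in BIT (-0.17, SE 0.161, adjusted p = 0.786). H4c14 (-0.26, adjusted p = 0.737, and -0.43 without WT replicate 3) and H4c3 (-0.14, adjusted p = 0.811) did so too. H4c16, which lies alone on chromosome 6 (chr6:136778551-136781413) and shared 4.34% of its 100-base windows with other genes, had 24.1, 25.3 and 17.8 CPM in WT and 14.5, 13.1 and 15.2 CPM in BIT, without overlap (-0.65, SE 0.175, adjusted p = 0.419). H4c1 (-0.60, SE 0.232, adjusted p = 0.547) lay at 9.62 to 18.4 CPM in WT and 7.03 to 11.3 CPM in BIT. All H4 genes encode the same or nearly the same short protein, so these differences are between transcripts rather than between kinds of histone.

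Near-identical neighbours differed in opposite directions. H4c17, H2ac23 and H2bc23 lie together at chr13:21990782-21996317, and H4c18, H2ac24 and H2bc24 lie together, in the opposite orientation, at chr13:22015937-22021700. H4c17 had 38.6, 37.3 and 33.6 CPM in WT and 22.9, 0.520 and 9.98 CPM in BIT, without overlap (-2.82, SE 0.855, adjusted p = 0.503). The size of this value rests on BIT replicate 2, without which it was -1.27, and it was -1.69 with DESeq2 and with the edgeR quasi-likelihood test. H4c18 had 21.0, 24.1 and 19.3 CPM in WT and 35.2, 69.2 and 30.8 CPM in BIT, with every BIT library above every WT library (0.96, SE 0.283, adjusted p = 0.503). H4c17 therefore held 64.7%, 60.8% and 63.5% of the pair's counts in WT and 39.5%, 0.746% and 24.5% in BIT. The sum of the pair was 59.6, 61.4 and 52.9 CPM in WT and 58.1, 69.7 and 40.7 CPM in BIT, with a fitted difference of -0.12 on the log2 scale, its interval running from -0.56 to 0.32. The genotypes were thus separated in how the counts were divided and overlapped in the sum. Of the 100-base windows, 88.1% of those of H4c17 and 80.7% of those of H4c18 were shared with the other gene of the pair.

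H2ac24 and H2ac23 showed the same arrangement with a different sum. H2ac24 had 23.9, 28.1 and 41.3 CPM in WT and 11.3, 9.54 and 19.1 CPM in BIT, without overlap (-1.25, SE 0.249, adjusted p = 0.228). H2ac23 had 2.17, 2.05 and 5.83 CPM in WT and 10.1, 9.04 and 5.34 CPM in BIT (1.46, SE 0.391, adjusted p = 0.414), with overlap only between the replicates numbered 3. The share of H2ac24 in the pair was 91.7%, 93.2% and 87.6% in WT and 52.9%, 51.3% and 78.1% in BIT. Here the pair's sum was also lower, at 26.1, 30.2 and 47.1 CPM in WT and 21.4, 18.6 and 24.4 CPM in BIT, with no overlap and a log2 fold change of -0.65 (SE 0.198, 95% interval -1.10 to -0.20). The log2 value of H2ac24 alone was further from 0 than that of the pair, and 92.2% of its windows were shared with H2ac23. How the division of reads between the genes of a pair bears on the values of the single genes was not tested.

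**Figure D3:**
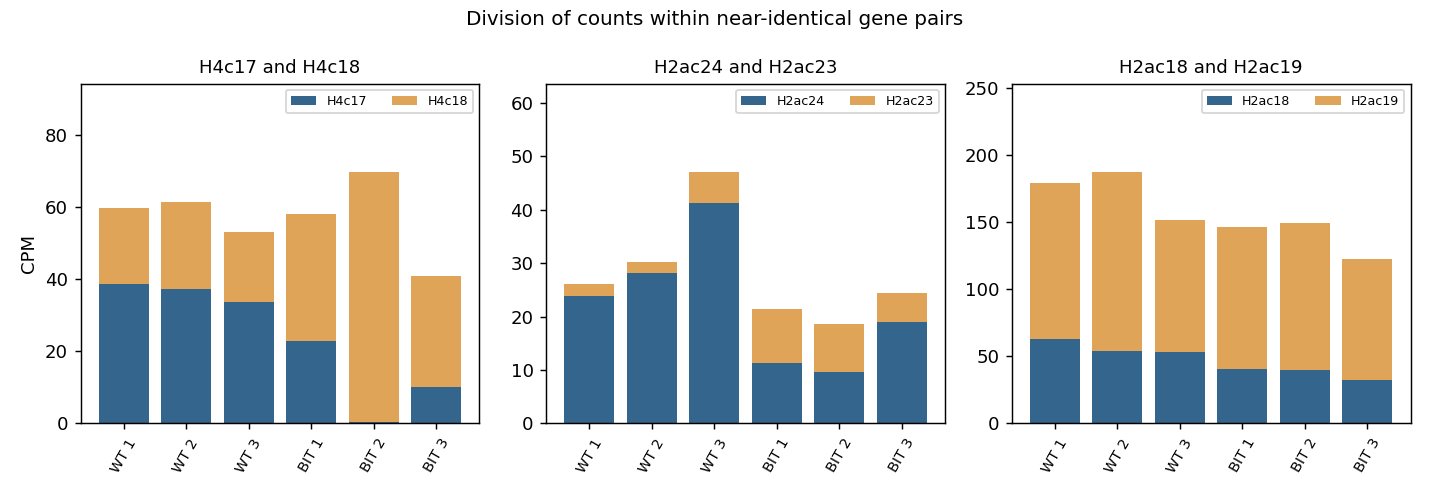
CPM of 3 near-identical gene pairs in each library, stacked, with linear axes from 0 that differ between panels. The total of H4c17 and H4c18 overlaps between genotypes while the H4c17 part is lower in BIT (0.520 to 22.9 CPM) than in WT (33.6 to 38.6 CPM), and the total of H2ac24 and H2ac23 is lower in every BIT library.

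The third genes of these neighbourhoods could not be separated at all. H2bc24 shared every window with H2bc23 and received counts in WT replicate 1 only, whereas H2bc23 received counts in every library. Their sum was 7.24, 9.33 and 8.84 CPM in WT and 6.10, 6.05 and 6.12 CPM in BIT, without overlap (-0.44, 95% interval -0.82 to -0.06). H3c14 and H3c15 on chromosome 3 were a similar case, with all counts in H3c15, at 2.95, 5.48 and 11.8 CPM in WT and 4.89, 3.14 and 1.16 CPM in BIT.

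Members were also grouped by the share of their 100-base windows that occurred in other genes. Of the 16 tested members with under 10% of windows shared, 14 had a value below 0, with a median of -0.27 and a range from -0.74 to 0.08. For the 23 members with 10% to 50% shared, the median was -0.47, with 21 values below 0. For the 24 members with over 50% shared, the median was -0.27, but the values ran from -2.82 to 2.55 and included all 3 members with an unadjusted p below 0.05 in the direction of higher levels in BIT. Lower fitted levels were common in all of these groups, against 47.7% of all genes tested with a value below 0. The extremes in either direction lay among the genes that share most, and the part of read division in these values was not tested. RSEM divides such reads by estimation, and 14.8% of the member values above 0 were whole numbers to within 0.001, against 84.8% of all values above 0 in the table.

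The annotated ends of the genes were set against the stem-loop, since RNA past it is not part of the processed histone mRNA. In 17 of the 60 members with a stem-loop, the annotated gene ended before the stem-loop was complete, in 20 it ended within 100 bases after it, and in 23 it ran more than 100 bases past it. Distances were taken along the genome to the end of the annotated gene, so they can include introns and the ends of any annotated transcript. The longest, 9518 bases for H2bc4, exceeds its canonical transcript of 1707 bases in 2 exons. Among the 22 tested members that ran on, 22 had a value below 0, with a median of -0.42 and a range from -1.04 to -0.03. Among the 20 that ended close to the stem-loop, 15 had a value below 0 and the median was -0.44, and this group held the H4c17, H4c18, H2ac23 and H2ac24 genes. Among the 15 tested that ended early, 12 had a value below 0 and the median was -0.29. A value below 0 was found for 85.7% of all members tested and 47.7% of all genes tested, and this grouping was made after the fold changes had been seen. H1f3 (4884 bases past the stem-loop), H4c16 (2445) and H2ac6 (2010) were among those that ran on, and the counts of such genes cannot be divided here into RNA ending at the stem-loop and RNA extending past it. The median was -0.36 over the 57 tested members with a stem-loop and -0.28 over the 6 without it in the window searched.

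By position, 53 members lie on chromosome 13, 10 on chromosome 3, 3 on chromosome 11 and 1 on chromosome 6. The summed level on chromosome 3 was 311, 344 and 289.9 CPM in WT and 269.6, 273 and 224 CPM in BIT, and on chromosome 11 it was 28.8, 30.9 and 40.9 CPM in WT and 24.5, 23.4 and 27.5 CPM in BIT. In both clusters every BIT library was below every WT library, with differences in mean log2 CPM, BIT minus WT, of -0.31 and -0.40. On chromosome 13 the main cluster of 30 members at chr13:23715220-24118834 had 612, 644 and 778 CPM in WT and 571, 619 and 531 CPM in BIT, with overlap by BIT replicate 2 and a difference of -0.24. The cluster of 18 members at chr13:21899933-22021700 (-0.36) and the cluster of 5 members at chr13:22219334-22227846 (-0.20) also overlapped. The lower levels were therefore not those of a single cluster.

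Promoters of 57 members were matched in a RefSeq table of the GRCm38.p6 build, from 250 bases before to 50 bases after the start of the gene, and read for 3 motifs on both strands. A gene counted if any of its promoters matched. The octamer ATGCAAAT, which OCT1 (POU2F1) binds in H2B promoters, was found for 7 of 14 H2B and 6 of 17 H2A genes. It was found for no H1, H3 or H4 gene and for 1.97% of all 27025 genes with a promoter given. CCAAT was found for every matched H1, H2A, H2B and H3 gene but for 3 of 11 H4 genes, against 41.1% of all genes. TATAAA was found for 34 of 57 members, against 15.7% of all genes. These are matches of letters in this window only.

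WT replicate 3 was the highest of the 6 libraries for 45 of 63 members, or 71.4%, against 30.8% of all genes tested. This was so for 5 of 5 H1, 11 of 17 H2A, 14 of 17 H2B and 11 of 11 H3 genes, but for 4 of 13 H4 genes. The ratio of WT replicate 3 to the mean of WT replicates 1 and 2 had a median of 1.98 over H3, 1.57 over H2B, 1.47 over H2A, 1.33 over H1 and 0.958 over H4 genes, against 1.12 over all genes. Of the S phase genes 21 of 37 were also highest in that library, and so were the genes of mitosis. Their sum over 22 genes was 65.8, 90.9 and 171 CPM in WT and 79.0, 78.3 and 82.5 CPM in BIT, and WT replicate 3 was the highest library for 22 of 22. Mki67, a marker of cycling cells, had 12.6, 19.7 and 51.7 CPM in WT and 17.1, 16.8 and 21.6 CPM in BIT (-0.32, adjusted p = 0.853). Top2a, which untangles replicated chromosomes, differed by -0.07 (adjusted p = 0.960), and Kif23, needed for the last step of cell division, by -0.42 (adjusted p = 0.453). Of the mitosis genes 19 had a value below 0 and 1 an unadjusted p below 0.05, with a median of -0.35. The summed myeloid markers were highest in the same library, at 78.6 CPM against 44.7 and 59.9 CPM in the other WT libraries and 46.1 to 50.02 CPM in BIT, but this was so for 3 of the 9 tested. Most of the excess was Itgax, at 2.91, 3.58 and 20.6 CPM in WT and 3.07 to 6.03 CPM in BIT, while Cst3 and Lyz2 were not highest there. The part of cycling cells, of myeloid cells or of the sex of this mouse in the histone values was not tested. Without this library the difference remained below 0 in each class sum, as given above. Its interval excluded 0 for H2A and H2B only. In replicates 1 and 2 alone the difference was -0.36 for H2A (interval -0.60 to -0.11) and -0.46 for H2B (-0.83 to -0.10). The intervals there included 0 for H3 (-0.28, from -0.60 to 0.05), H1 (-0.14, from -0.40 to 0.11) and H4 (-0.10, from -0.36 to 0.15). That of all members, given above, also included 0.

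**Figure D4:**
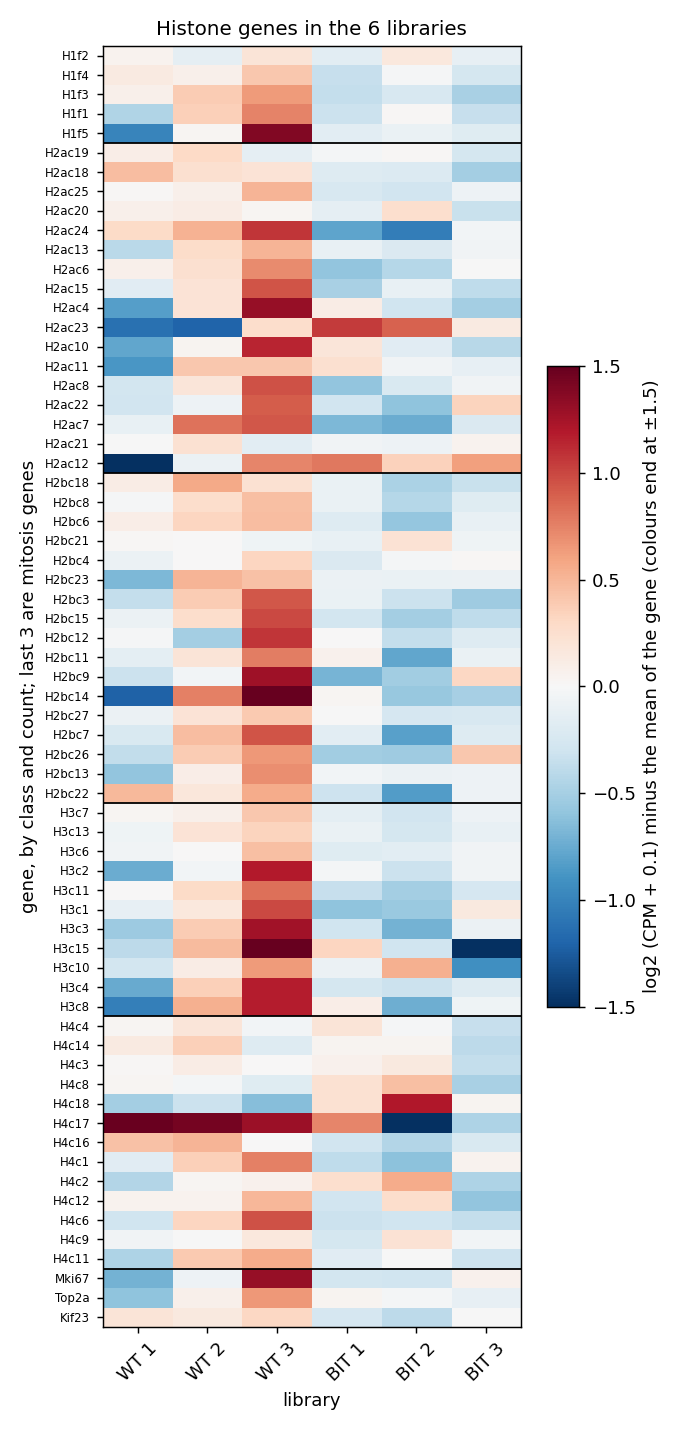
Each row is 1 of the 63 members tested, in the order of class and mean CPM, with the mitosis genes Mki67, Top2a and Kif23 in the last rows, and each column is 1 library, coloured by log2 (CPM + 0.1) minus the mean of that gene over the 6 libraries. The column of WT replicate 3 is the reddest for most H1, H2B and H3 rows and for Mki67, but not for the abundant H4 rows, and H4c17 and H4c18 stand out by opposite colours.

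The genes that act on histone RNA had values around 0. Of 24 tested genes of the histone mRNA machinery 6 had a value below 0, and the median was 0.07, with 1 unadjusted p below 0.05. Slbp, which encodes the stem-loop binding protein, differed by 0.02 (adjusted p = 0.967), and Npat, the coactivator of histone gene transcription, by 0.02 (adjusted p = 0.966). Lsm11, a subunit of the U7 snRNP, had the lowest unadjusted p of the list and differed by 0.43 (adjusted p = 0.535). The most abundant of these genes, Tut7 (-0.11), Upf1 (0.14) and Srrt (-0.06), which act in the decay and 3′ end formation of histone mRNA, had adjusted p values between 0.716 and 0.885. Genes of S phase, led by Pcna (-0.10), Mcm6 (0.16) and Mcm4 (0.11), had a median of 0.05 over 37 genes, 14 of them below 0 and 2 with an unadjusted p below 0.05. Their summed level was 729 to 850.5 CPM in WT and 825 to 877 CPM in BIT. No gene of the lists of histone mRNA machinery, S phase, mitosis, replication-independent histones, histone chaperones or other RNAs without a poly(A) tail had an adjusted p below 0.05 with limma-voom after quantile or TMM normalization, with the edgeR quasi-likelihood test or with DESeq2.

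A list of histone genes outside the rule held mainly replication-independent histones, which many cells make throughout the cycle as polyadenylated mRNA. It also held H2ax, H3f4 and H1f6, which carry the stem-loop, and Cenpa, whose mRNA follows the cell cycle. Of 9 tested, 8 had a value below 0 and the median was -0.15, with 1 unadjusted p below 0.05 (0 after TMM normalization). H3f3a, encoding H3.3, had 376, 431 and 282 CPM in WT and 335, 313 and 303 CPM in BIT (-0.20, adjusted p = 0.749), with overlap. H3f3b, encoding the same protein, had 235, 225 and 261 CPM in WT and 202, 219.7 and 211 CPM in BIT, without overlap (-0.26, SE 0.0779, adjusted p = 0.503). Macroh2a1 differed by -0.14 (adjusted p = 0.688). The list summed to 927 to 994 CPM in WT and 861 to 880.4 CPM in BIT, so that in these T cells it stood near the level of all replication-dependent members together. Histone chaperones, led by Npm1 (0.01), Atrx (-0.01) and Nap1l1 (-0.13), had a median of 0.03 over 20 genes, 1 of them with an unadjusted p below 0.05. Other RNAs without a poly(A) tail, led by Rn7s2, Rn7s1 and Rn7sk, summed to 107000 to 136000 CPM in WT and 113000 to 141000 CPM in BIT, with overlap. Their fitted median was 0.13 over 11 genes, with 1 unadjusted p below 0.05, but quantile normalization sets the values of such abundant RNAs by their rank, so it was not compared with that of the histone genes.

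Markers of other cells that the sorted population could hold were summed in the same libraries. B cell markers, chiefly Ighm, summed to 349.8 to 371 CPM in WT and 339.96 to 377 CPM in BIT. Plasma cell markers, chiefly Xbp1 and Irf4, summed to 31.9 to 38.5 CPM in WT and 26.5 to 30.0 CPM in BIT, without overlap. Of the 5 plasma cell genes tested, 4 had a value below 0, with Xbp1 at -0.16 and Irf4 at -0.53, and 1, Jchain, was at 0.66. CD4 T cell markers summed to 5.89 to 9.21 CPM in WT and 4.89 to 6.27 CPM in BIT, and γδ T cell markers to 6.88 to 9.11 CPM in WT and 6.47 to 9.53 CPM in BIT. The NK cell list summed to 75.5 to 106 CPM in WT and 135 to 159 CPM in BIT, almost all of it from Eomes (0.69, adjusted p = 0.112), a transcription factor that memory CD8+ T cells also make, while Ncr1, a defining NK cell receptor, stayed at or below 0.415 CPM. Erythroid markers, chiefly Alas2 and Hbb-bs, summed to 2.68 to 16.8 CPM in WT and 7.26 to 60.7 CPM in BIT, with the highest value in BIT replicate 2. With limma-voom none of the marker genes had an adjusted p below 0.05, while DESeq2 called Eomes and, in the CD8 T cell list, Cd5. Among the lists of other cells, the groups did not overlap for the plasma cell and NK cell sums, and their part in the histone values was not tested.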

How the data were processed

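TCRβhigh CD4-CD8+ T cells of 3 WT and 3 BIT mice were sequenced as ribosomal RNA-depleted, stranded total RNA, which keeps RNA without a poly(A) tail. Per the submitters' processing notes and the study's methods, the authors used Cutadapt 1.18 for trimming and STAR 2.7.0f for alignment (GRCm39), and deposited expected counts per gene from RSEM 1.3.1 with Gencode annotation. RSEM divides reads that match several genes by estimation, which affects near-identical histone genes, and its strand setting is not given in the sources used here.

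Counts were rounded, filtered with filterByExpr in edgeR 4.0.16, quantile-normalized and fitted with voom in limma 3.58.1 (R 4.3.3), as the study's methods name, with Benjamini-Hochberg adjustment over 16105 genes. Class and pair sums replaced their members in the same fit. DESeq2 1.42.0 and other settings were alternatives. Replicates were separate mice, with 3 a genotype. A floor of 3 counts covers counting error only. Stem-loops, transcript windows and coordinates came from GRCm39 with a later Gencode release, in which all 67 members kept their symbols. Promoters came from RefSeq (GRCm38.p6). The per-kilobase levels used the canonical transcript of that annotation.

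Genes were named by rule: in each class the 3 with the highest mean CPM and every member with an unadjusted p below 0.05, in the accompanying lists up to 3 genes with the highest mean CPM, and H2ac24, Psmb8 and Psmb11. Further genes, among them H4c8, H2bc23, H3c15, Gm20634, Trim17, Slbp, Npat, Lsm11, Cd5, Cenpa and Ncr1, were named after their values were seen. The members and lists were chosen with earlier results of these data known. The annotated ends were set against the stem-loop only after the fold changes had been seen.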

Additional observations from a re-analysis of the deposited data

How the results depend on the processing

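The count of members with an adjusted p below 0.05, 0 with limma-voom, was also 0 with TMM normalization and with the edgeR quasi-likelihood test. Over all genes, limma-voom called 22 of 16105. With DESeq2 the count of members was 6, against 125 of 13292 genes. In replicates 1 and 2 alone it was 4, against 71 of 16185 genes. With replicate 3 of both genotypes as a batch it was 2, against 42 of 16105 genes. Without WT replicate 3 it was 1 (H4c16), against 37 of 16502 genes. Over the libraries left out in turn it ranged from 0 to 1. The numbers of members with an unadjusted p below 0.05 ranged from 14 to 33 in the lower direction (33 without WT replicate 1) and from 2 to 5 in the higher direction, with 5 without BIT replicate 3 and 5 in replicates 1 and 2 alone. The share of all genes with such a p was computed for the main fit only. In replicates 1 and 2 alone the sum of all members was at -0.10 and that of H2A at -0.36. The sum of H4c17 and H4c18, added after seeing the data, changed direction, to 0.013 in replicates 1 and 2 alone and to 0.11 without BIT replicate 3, in a range from -0.29 to 0.11 over the libraries left out, and H4c3 did so without BIT replicate 3, in a range from -0.23 to 0.030. The 28 members named by rule gave 419 fitted values over 15 alternatives, of which 418 kept their direction and 15 passed the adjusted threshold. The median of all members ranged from -0.57 to -0.25 with each library left out, and was -0.11 in replicates 1 and 2 alone. The causes of these differences were not tested.

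Mice of the 2 genotypes shared only replicate numbers, whose deviations from the group means correlated at 0.139, 0.0255 and 0.332, and WT replicate 2 correlated best with BIT replicate 1 (0.244). With the replicate number as a block, 2 members passed the adjusted threshold (H2ac18 and H2ac24), against 21 of 16105 genes.

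With 3 mice a genotype the precision was set by the spread between mice, and members under 1 CPM, such as H2ac12, rested on few counts. The reads behind near-identical genes cannot be recovered from gene totals.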
